A study of Mus musculus with 11 samples.

Results

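This account covers the enzymes and carriers that burn fatty acids in mitochondria and peroxisomes, as read from RNA of isolated mouse glomeruli, the filtering units of the kidney. The members were a list of 34 gene symbols, and all 34 were found among the 13734 genes of the deposited count table. Transcripts were summed per symbol. By the main location of the protein, 21 members were mitochondrial, 9 were peroxisomal and 4 lay elsewhere (the nuclear receptor Ppara, the microsomal hydroxylases Cyp4a10 and Cyp4a14, and the cytosolic thioesterase Acot1). Some of these proteins work in more than 1 compartment.

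Long-chain fatty acids are tied to coenzyme A, carried into mitochondria as carnitine esters, and shortened there by repeated rounds of dehydrogenation, hydration, a further dehydrogenation and thiolysis. Peroxisomes shorten very long and branched chains, and microsomal Cyp4a enzymes oxidise the far end of the chain. The nuclear receptor Ppara switches on many genes of all these routes in mouse liver and kidney. In the kidney the pathway is best known from the proximal tubule, which takes most of its energy from fatty acids.

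The study asked what puerarin, a plant isoflavone glycoside given for diabetic kidney disease, does in a mouse model of that disease. The db/db puerarin group (3 libraries) came from leptin receptor-deficient, obese and diabetic mice that were given puerarin at 20 mg/kg per day by oral gavage in 5% DMSO. The db/db vehicle group (4 libraries) had the same genotype and received 5% DMSO alone, and the db/m vehicle group (4 libraries) held littermates that carry 1 copy of the mutation, are not diabetic and also received 5% DMSO. Treatment ran for 6 weeks from 10 weeks of age, after purchase of the animals at 8 weeks. The protocol gives the BKS background, the strain field names C57BL/6J, and all animals are described as male. Whether a library is 1 animal or a pool is not stated, so a p-value reflects how far these libraries spread, and that spread may be partly technical.

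Libraries are named here by the number in their titles. Those with an S number (S144, S152, S153, S184 and S185) and those with a group tag and a short number occur in each group, and the labels do not say at which sequencing site a given library was read. Total counts ran from 35369703 to 44244460 per library, of which the 34 members took 0.18% to 0.329%. Podocyte markers were high in each library, with Nphs1 at 1178 to 1567 CPM (counts scaled to a common library total), and the 26 proximal tubule markers were all detected too. Their summed level was 1989 to 2948 CPM in db/db puerarin, 1227 to 5767 CPM in db/db vehicle and 1628 to 8148 CPM in db/m vehicle. Against the male label, Xist, the RNA that coats an inactivated X, reached 528.5 and 819 CPM in db/db puerarin 2 and 3, compared with 0.52 to 6.47 CPM in the other 9 libraries. The Y-linked gene Ddx3y was at 3.06 and 0.91 CPM in that pair and at 50.3 to 85.2 CPM elsewhere. The main puerarin results are therefore also given without these libraries.

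Promoter windows (250 bases before to 50 after the start, RefSeq, build GRCm38.p6, which is mm10) were found for 28 of the 34 members. No window was at hand for Acaa2, Crat, Cyp4a10, Cyp4a14, Decr1 or Hsd17b4. Shown here are Ppara and Acot1 and the head-to-head pair Hadha and Hadhb, whose products form 1 enzyme complex. Ppara and Acot1 had log2 fold changes above 0 against db/m vehicle in both db/db groups, as did others such as Cpt1a and Hadh. Capitals mark the GC box GGGCGG and the CCAAT box on either strand and, in Ppara, the NRF1 motif (GCGCA followed by its reverse complement).
Ppara (chr15:85735526-85735825, plus strand): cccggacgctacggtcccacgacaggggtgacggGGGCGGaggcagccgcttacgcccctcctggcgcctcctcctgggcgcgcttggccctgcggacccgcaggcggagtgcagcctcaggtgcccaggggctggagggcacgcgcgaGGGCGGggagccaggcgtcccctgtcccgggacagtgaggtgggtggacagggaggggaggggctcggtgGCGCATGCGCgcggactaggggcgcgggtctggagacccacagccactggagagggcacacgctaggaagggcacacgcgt
Acot1 (chr12:84009252-84009551, plus strand): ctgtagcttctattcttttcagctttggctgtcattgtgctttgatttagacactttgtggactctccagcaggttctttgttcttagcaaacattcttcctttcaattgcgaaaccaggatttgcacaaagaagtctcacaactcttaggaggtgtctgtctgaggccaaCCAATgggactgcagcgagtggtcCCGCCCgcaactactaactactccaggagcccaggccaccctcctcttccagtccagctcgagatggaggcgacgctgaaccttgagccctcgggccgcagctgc
Hadha (chr5:30154931-30155230, minus strand): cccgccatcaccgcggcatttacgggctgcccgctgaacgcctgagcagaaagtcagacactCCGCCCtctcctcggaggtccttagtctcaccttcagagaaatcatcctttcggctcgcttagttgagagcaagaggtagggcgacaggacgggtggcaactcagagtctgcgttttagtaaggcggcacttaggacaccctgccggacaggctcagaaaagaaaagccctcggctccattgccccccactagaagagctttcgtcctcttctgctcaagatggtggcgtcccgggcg
Hadhb (chr5:30155003-30155302, plus strand): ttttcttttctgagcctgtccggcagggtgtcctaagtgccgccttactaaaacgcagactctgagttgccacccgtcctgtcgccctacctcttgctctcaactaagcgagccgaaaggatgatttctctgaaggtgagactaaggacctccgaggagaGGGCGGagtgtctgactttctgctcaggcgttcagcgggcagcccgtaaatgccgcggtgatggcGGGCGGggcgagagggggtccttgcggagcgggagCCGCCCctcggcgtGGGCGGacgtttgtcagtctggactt

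The Hadha and Hadhb windows overlap by 228 bases, and the GC box at position 63 of the first is the one at position 161 of the other, read from the opposite strand. Over all 29 member windows, the GC box occurred in 22 (75.9%), against 35.7% of 32851 promoters of the same length. The CCAAT box occurred in 14 (48.3%, against 37.4%), and the NRF1 motif occurred in Etfdh and Ppara (0.971% of all promoters). The nuclear receptor repeat of AGGNCA with 1 base between its copies (0.381%), the oestrogen-related receptor half-site TCAAGGTCA (0.423%) and the cAMP element TGACGTCA (1.79%) were in 0 member windows. All motifs were searched on both strands without mismatches.

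Members differed widely in level. Per kilobase of the most abundant transcript, averaged over the 11 libraries, Etfb (the beta subunit of the electron transfer flavoprotein) came highest at 256.6 CPM per kb, followed by Ech1 at 119.6 and Hadh at 111.4 CPM per kb. Ppara was lowest at 4.46 CPM per kb, below Acacb at 4.93, Pex11a at 6.36, Acot1 at 6.6 and Cyp4a14 at 6.9 CPM per kb. These per-kb values were scaled to the total of each gene's most abundant transcript only. They are therefore not on the scale of the CPM given elsewhere. Each member was counted in each library, and the smallest count was 64, for Cyp4a14. The spread over libraries also differed by gene. The highest library exceeded the lowest by 22.7-fold for Cyp4a14, 7.61-fold for Cyp4a10, 4.54-fold for Acaa1b and 4.35-fold for Ppara, but by 1.36-fold for Slc25a20 and 1.37-fold for Eci2 and Hsd17b4.

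Values below are CPM scaled by TMM factors, in the order of the library names given with each group. Differences are log2 fold changes with their standard error (SE) from edgeR's quasi-likelihood fit with name form as a term, and adjusted p-values are Benjamini-Hochberg values over all 13734 genes.

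Cyp4a14, which hydroxylates the end carbon of fatty acids and is a classical Ppara target of mouse liver, lies on the minus strand at chr4:115486199-115496141 (mm10). Its level was 35.4, 21.8 and 10.2 CPM in db/db puerarin 2, 3 and S144, then 1.94, 17.7, 12.6 and 11.5 CPM in db/db vehicle 1, 3, S152 and S153, and 1.75, 1.59, 1.65 and 1.56 CPM in db/m vehicle 2, 3, S184 and S185. All 7 db/db libraries lay above all 4 db/m libraries, although db/db vehicle 1 did so narrowly. Group means were 22.5 ± 12.6 CPM in db/db puerarin (SD, n = 3), 10.9 ± 6.58 CPM in db/db vehicle (n = 4) and 1.64 ± 0.0854 CPM in db/m vehicle (n = 4). The log2 fold change was 2.75 ± 0.59 (SE) in db/db vehicle against db/m vehicle, with an edgeR adjusted p of 0.138, and 3.69 ± 0.64 in db/db puerarin against db/m vehicle (edgeR adjusted p = 0.0608). In db/db puerarin against db/db vehicle it was 0.94 ± 0.61 (edgeR adjusted p = 0.967), and the groups overlapped.

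None of these differences passed the threshold of 0.05. Cyp4a14 did pass without db/db vehicle 1, at a log2 fold change of 3.17 for db/db vehicle against db/m vehicle (edgeR adjusted p = 0.00154) and 3.57 for db/db puerarin against db/m vehicle (edgeR adjusted p = 0.00215). Within the S-number libraries alone it was 2.89 for db/db vehicle against db/m vehicle (edgeR adjusted p = 0.0446). Within the group-tag libraries alone Cyp4a14 did not pass. Its mean log2 CPM, which is not a fitted fold change, differed between these groups by 1.8 in group-tag and 2.89 in S-number libraries. The fitted log2 fold change of Cyp4a14 between these groups was 2.03 or more in every alternative fit. Of the 25 other settings, Cyp4a14 passed in 5 for db/db vehicle and in 6 for db/db puerarin, each against db/m vehicle. Over these alternatives the adjusted p of the 2 comparisons ran from 3.54e-05 to 0.874 and from 5.57e-08 to 0.681. The Cyp4a genes are near copies of each other, as are Acaa1a with Acaa1b and Acot1 with Acot2, so reads may have been split between them and their values are uncertain.

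Cyp4a10, a hydroxylase of the same family at chr4:115518286-115533649 on the plus strand, was at 24.6, 19.6 and 13.1 CPM in db/db puerarin 2, 3 and S144, at 4.25, 24.8, 15.2 and 15.6 CPM in db/db vehicle 1, 3, S152 and S153, and at 3.26, 4.0, 12.8 and 6.37 CPM in db/m vehicle 2, 3, S184 and S185. The puerarin libraries lay above all db/m libraries, S144 by little more than S184, whereas db/db vehicle 1 fell among the db/m values. Its log2 fold change was 1.25 ± 0.54 (SE) in db/db vehicle against db/m vehicle (edgeR adjusted p = 0.456), 0.45 ± 0.57 in db/db puerarin against db/db vehicle (edgeR adjusted p = 0.967) and 1.7 ± 0.6 in db/db puerarin against db/m vehicle (edgeR adjusted p = 0.347). Without db/db puerarin 2 and 3 the last value was 0.76 (edgeR adjusted p = 0.884).

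Ppara, the receptor that fatty acids activate (chr15:85735775-85806851, plus strand), was at 40.3, 50.2 and 35.5 CPM in db/db puerarin 2, 3 and S144. The level in db/db vehicle 1, 3, S152 and S153 was 26.9, 82.3, 50.5 and 58.9 CPM, and in db/m vehicle 2, 3, S184 and S185 at 21, 22.4, 47.1 and 18.9 CPM. Apart from S184, the db/m libraries were below all db/db libraries. The log2 fold change was 1.01 ± 0.36 (SE) in db/db vehicle against db/m vehicle (edgeR adjusted p = 0.372), -0.35 ± 0.4 in db/db puerarin against db/db vehicle (edgeR adjusted p = 0.967) and 0.66 ± 0.4 in db/db puerarin against db/m vehicle (edgeR adjusted p = 0.652), the last of which was 0.27 without db/db puerarin 2 and 3 (edgeR adjusted p = 0.947). S184 was also the library with the highest proximal tubule marker level.

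Acot1, a cytosolic enzyme that frees fatty acids from coenzyme A, was at 12.9, 7.24 and 4.83 CPM in db/db puerarin 2, 3 and S144, at 3.65, 8.01, 6.99 and 7.03 CPM in db/db vehicle 1, 3, S152 and S153, and at 4.25, 6.12, 6.07 and 3.28 CPM in db/m vehicle 2, 3, S184 and S185. The 3 groups overlapped. Its log2 fold change was 0.4 ± 0.34 (SE) in db/db vehicle against db/m vehicle, 0.3 ± 0.38 in db/db puerarin against db/db vehicle and 0.7 ± 0.38 in db/db puerarin against db/m vehicle, with edgeR adjusted p-values of 0.735, 0.967 and 0.593. Without db/db puerarin 2 and 3 it was -0.42 against db/db vehicle and -0.04 against db/m vehicle.

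**Figure D1:**
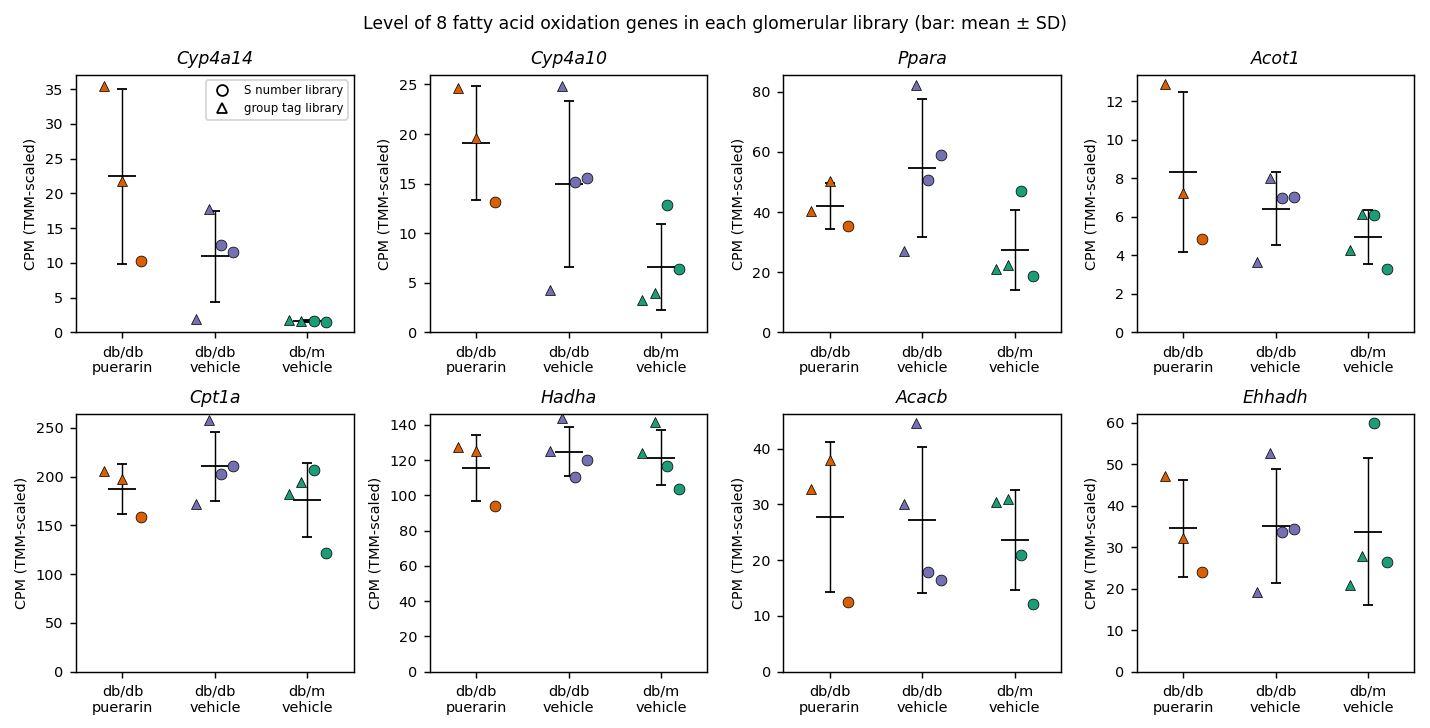
TMM-scaled CPM (y axis, from 0) of 8 members in each library of the 3 groups (x axis), with circles for S-number and triangles for group-tag libraries and bars for the mean ± SD. Cyp4a14 sat between 1.56 and 1.75 CPM in the 4 db/m libraries and above that in all 7 db/db libraries, while Cpt1a, Hadha, Acacb and Ehhadh overlapped across the groups.

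Fatty acids enter mitochondria through activation and the carnitine shuttle. Acsl1, which joins them to coenzyme A, was at 141.1, 140.8 and 55.2 CPM in db/db puerarin 2, 3 and S144, at 86.9, 151.6, 89.6 and 95 CPM in db/db vehicle 1, 3, S152 and S153, and at 101.7, 113.4, 103.5 and 50.6 CPM in db/m vehicle 2, 3, S184 and S185. Cpt1a, the rate-limiting carnitine transferase of the outer membrane, was at 205.6, 197.8 and 158.5 CPM in the puerarin libraries in the same order, at 171.6, 257.6, 202.2 and 210.7 CPM in db/db vehicle and at 182.2, 194.4, 206.5 and 121.6 CPM in db/m vehicle. For both genes S144 was the lowest puerarin library and S185 the lowest of all. Slc25a20, the carnitine carrier of the inner membrane, was at 36, 34 and 34 CPM in db/db puerarin, against 31.8, 36.5, 34.7 and 38.4 CPM in db/db vehicle and 32.3, 36.9, 34.2 and 28.2 CPM in db/m vehicle. Cpt2, which returns the chain to coenzyme A inside, was at 31.5, 31.2 and 24.0 CPM in db/db puerarin, 25.1, 37.7, 29.6 and 32.3 CPM in db/db vehicle and 30.0, 33.7, 32.7 and 23.2 CPM in db/m vehicle. All 4 overlapped in every comparison. In db/db vehicle against db/m vehicle their log2 fold changes were 0.21 ± 0.26 (SE) for Acsl1, 0.26 ± 0.17 for Cpt1a, 0.1 ± 0.1 for Slc25a20 and 0.07 ± 0.15 for Cpt2. With puerarin against vehicle in db/db mice they were -0.1 ± 0.29 (SE) for Acsl1, -0.21 ± 0.18 for Cpt1a, -0.03 ± 0.11 for Slc25a20 and -0.15 ± 0.16 for Cpt2.

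Crat, which makes short-chain carnitine esters, was at 50.3, 50 and 40.6 CPM in db/db puerarin 2, 3 and S144, at 49.2, 65.3, 47.0 and 50.4 CPM in db/db vehicle 1, 3, S152 and S153, and at 48.2, 51.2, 48.9 and 35.8 CPM in db/m vehicle 2, 3, S184 and S185. Acacb, the acetyl-CoA carboxylase whose malonyl-CoA restrains Cpt1a, was at 32.7, 37.9 and 12.5 CPM in db/db puerarin, 30.0, 44.6, 17.8 and 16.4 CPM in db/db vehicle and 30.4, 31, 21 and 12.1 CPM in db/m vehicle. Acacb separated the libraries by name form and not by group: all 6 group-tag libraries lay above all 5 S-number libraries. Hadha did the same less widely, and these 2 members compare with 5.13% of all genes that were higher in every group-tag library, with 0 members lower (all genes 1.58%). Acot2, a mitochondrial thioesterase, was at 23.9, 20.3 and 13.9 CPM in db/db puerarin, 13.4, 16.7, 13.9 and 17.9 CPM in db/db vehicle and 18.6, 20.9, 17.3 and 12.1 CPM in db/m vehicle. It was the only member below 0 in db/db vehicle against db/m vehicle, at a log2 fold change of -0.13 ± 0.18 (SE), and the only mitochondrial member above 0 in db/db puerarin against db/db vehicle, at 0.24 ± 0.2.

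The acyl-CoA dehydrogenases start each round on chains of falling length. Acadvl, for very long chains, was at 74.3, 71.2 and 48.5 CPM in db/db puerarin 2, 3 and S144, at 59.6, 86.1, 61.7 and 67.7 CPM in db/db vehicle 1, 3, S152 and S153, and at 60.8, 74.3, 75.3 and 48.0 CPM in db/m vehicle 2, 3, S184 and S185. Acadl, for long chains, was at 89.3, 72.0 and 71.8 CPM in db/db puerarin, 66.5, 100.6, 92.9 and 84.2 CPM in db/db vehicle and 79.1, 75.1, 88.4 and 61.6 CPM in db/m vehicle. The highest library was db/db vehicle 3 for both. Acadm, for medium chains, was at 132.2, 95.7 and 77.6 CPM in db/db puerarin, 82.9, 153.2, 106.4 and 109.8 CPM in db/db vehicle and 98.4, 102.3, 134.8 and 80.3 CPM in db/m vehicle. Acads, for short chains, was at 47.0, 49.5 and 35.2 CPM in db/db puerarin, 46.3, 63.0, 48.1 and 49.9 CPM in db/db vehicle and 39.3, 55.0, 49.6 and 33.3 CPM in db/m vehicle. The groups overlapped for all 4. Between db/db vehicle and db/m vehicle the log2 fold changes were 0.09 ± 0.17 (SE) for Acadvl, 0.18 ± 0.15 for Acadl, 0.12 ± 0.22 for Acadm and 0.23 ± 0.16 for Acads, and in db/db puerarin against db/db vehicle they were -0.15 ± 0.18, -0.15 ± 0.17, -0.18 ± 0.25 and -0.29 ± 0.17 in that gene order.

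Hadha and Hadhb encode the alpha and beta subunits of the trifunctional protein, which carries out the later steps on long chains. Hadha was at 127.2, 124.9 and 93.8 CPM in db/db puerarin 2, 3 and S144, at 125.3, 143.7, 110.1 and 120.0 CPM in db/db vehicle 1, 3, S152 and S153, and at 124.2, 141.3, 116.8 and 103.4 CPM in db/m vehicle 2, 3, S184 and S185. Hadhb, with 3 transcripts in the sum, was at 388.4, 306.9 and 238.6 CPM in db/db puerarin, 321.5, 406.9, 295.3 and 306.4 CPM in db/db vehicle and 331.6, 310.4, 318.2 and 243.1 CPM in db/m vehicle. For this head-to-head pair the log2 fold change was 0.04 ± 0.09 (SE) for Hadha and 0.14 ± 0.12 for Hadhb in db/db vehicle against db/m vehicle. In db/db puerarin against db/db vehicle it was -0.17 ± 0.09 and -0.16 ± 0.14. The 21 mitochondrial members had medians of 0.14 and -0.17 in these comparisons, so such values were not particular to the pair. Echs1, the short-chain hydratase, was at 71.3, 63.1 and 37.6 CPM in db/db puerarin, 66.2, 84.4, 58.5 and 60.3 CPM in db/db vehicle and 65.0, 63.3, 73.7 and 40.9 CPM in db/m vehicle. Etfdh, which passes the electrons on to ubiquinone, was at 62.2, 60.9 and 48.5 CPM in db/db puerarin, 52.7, 70.8, 57.5 and 57.3 CPM in db/db vehicle and 54.0, 55.9, 63.6 and 47.4 CPM in db/m vehicle. S144 and S185 were the lowest libraries of their groups for all 4 genes. Between db/db puerarin and db/db vehicle, Echs1 had a log2 fold change of -0.32 ± 0.2 (SE) and Etfdh of -0.08 ± 0.13, and in db/db vehicle against db/m vehicle they had 0.14 ± 0.18 and 0.11 ± 0.12.

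Of the peroxisomal members, Ehhadh, the bifunctional hydratase and dehydrogenase, was at 47.3, 32.3 and 24.1 CPM in db/db puerarin 2, 3 and S144, at 19.2, 52.8, 33.8 and 34.5 CPM in db/db vehicle 1, 3, S152 and S153, and at 20.8, 27.9, 60.0 and 26.4 CPM in db/m vehicle 2, 3, S184 and S185. Acaa1b, a peroxisomal thiolase, was at 23.4, 20.5 and 12.9 CPM in db/db puerarin, 9.39, 42.7, 25.4 and 34.1 CPM in db/db vehicle and 12.9, 25.7, 26.8 and 13.4 CPM in db/m vehicle. Both were lowest in db/db vehicle 1, and db/db vehicle 3 and db/m vehicle S184 were the highest libraries of their groups, the libraries with the lowest and the 2 highest proximal tubule marker levels. Crot, which makes medium-chain carnitine esters for export from the peroxisome, was at 43.5, 42.9 and 46.4 CPM in db/db puerarin, 43.4, 54.5, 51.8 and 55.1 CPM in db/db vehicle and 46.9, 40.9, 63.7 and 51.2 CPM in db/m vehicle. Pex11a, a membrane protein of peroxisome division, was at 3.09, 4.44 and 3.19 CPM in db/db puerarin, 3.16, 6.0, 2.81 and 3.42 CPM in db/db vehicle and 3.41, 2.81, 3.5 and 2.51 CPM in db/m vehicle. The groups overlapped for all 4. Their log2 fold changes in db/db vehicle against db/m vehicle were 0.07 ± 0.39 (SE) for Ehhadh, 0.5 ± 0.43 for Acaa1b, 0.02 ± 0.11 for Crot and 0.31 ± 0.24 for Pex11a, and in db/db puerarin against db/db vehicle they were 0.01 ± 0.42, -0.58 ± 0.48, -0.17 ± 0.12 and -0.14 ± 0.26 in that gene order.

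The other 11 members, 6 mitochondrial (Acaa2, Decr1, Eci1, Etfa, Etfb and Hadh) and 5 peroxisomal (Acaa1a, Decr2, Ech1, Eci2 and Hsd17b4), overlapped between groups in each comparison. In db/db vehicle against db/m vehicle their log2 fold changes ran from 0.04 for Acaa1a to 0.34 for Hadh, a dehydrogenase of short and medium chains. Between db/db puerarin and db/db vehicle they ran from -0.32 for Hadh to 0.0 for Eci2 and Ech1, which are auxiliary isomerases for unsaturated chains.

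The comparison of db/db vehicle with db/m vehicle asks what the diabetic genotype changed. Most members sat slightly higher in db/db vehicle: 33 of 34 had a log2 fold change above 0, against 53.5% of all genes, and 1 was below 0, against 46.5%, with a median of 0.15 (all genes 0.02). The 21 mitochondrial members had a median of 0.14 and the 9 peroxisomal members of 0.15, while the 4 others (Ppara, Cyp4a10, Cyp4a14 and Acot1) had a median of 1.13. By edgeR's adjusted p, 0 of 34 members passed, as did 6 of 13734 genes (0.0437%). At an unadjusted p under 0.05 the members higher in db/db vehicle were Cyp4a14, Ppara and Cyp4a10, 3 of 34, against 5.5% of all genes, and 1 of 34, Cyp4a14, was higher without overlap, against 2.48%. No member was lower on either count, against 4.83% and 2.48% of all genes. DESeq2 called Cyp4a14 and no other member. The smallest edgeR adjusted p was 0.601 among mitochondrial members (Crat) and 0.666 among peroxisomal ones (Ech1). Leaving out db/db vehicle 3 or db/m vehicle S185 left 26 of 34 above 0, and leaving out any other library 30 to 34.

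**Figure D2:**
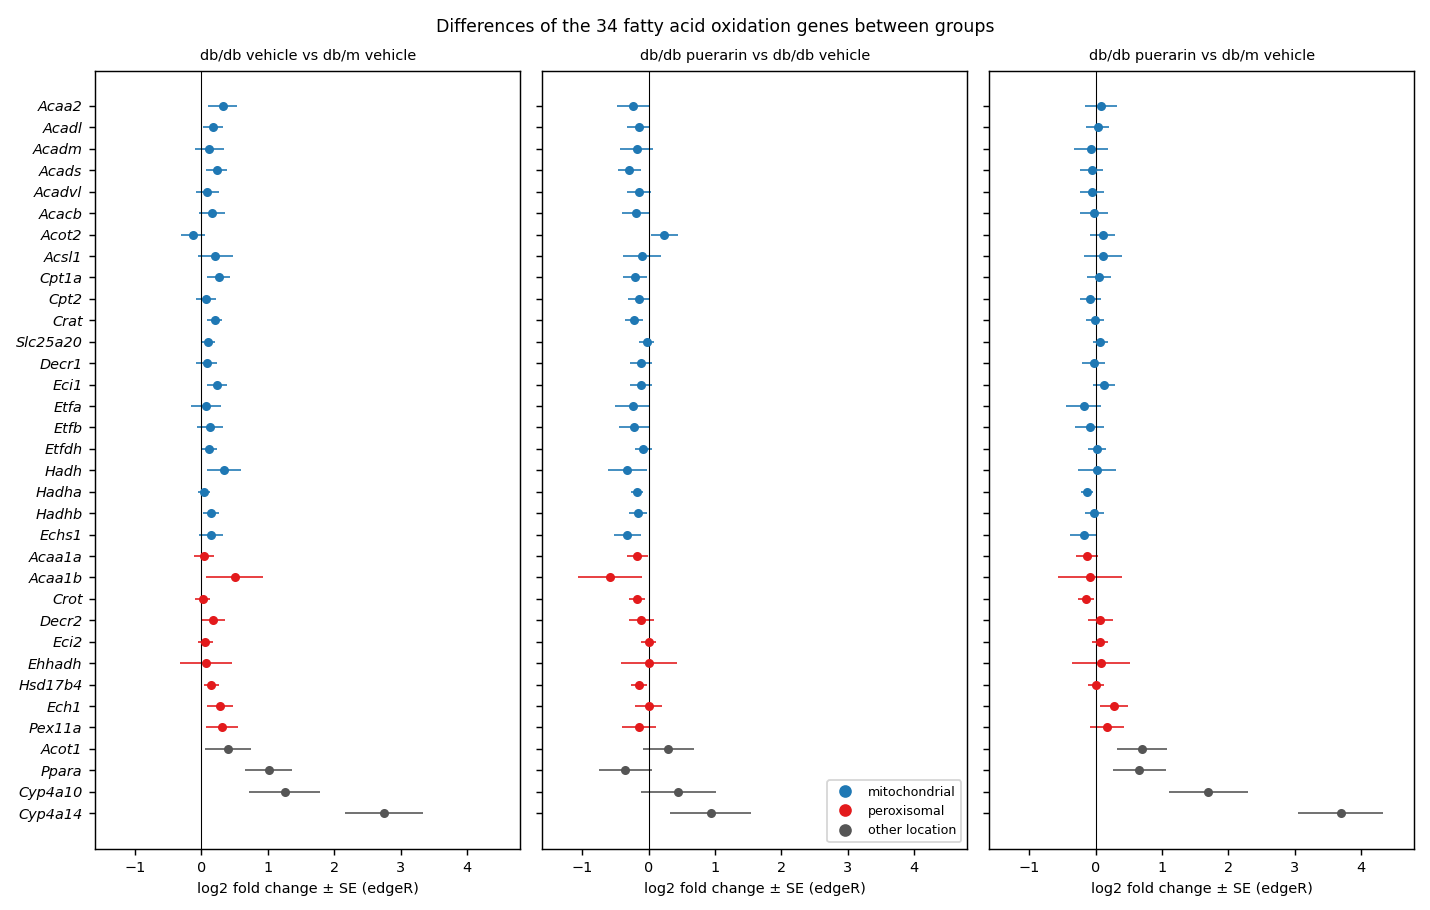
Log2 fold change ± SE from edgeR (x axis) of the 34 members (y axis), coloured by main location, in the 3 comparisons. In db/db vehicle against db/m vehicle 33 of 34 points lie right of 0, in db/db puerarin against db/db vehicle 27 lie left of it, and Cyp4a14 has the highest value in each panel.

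The comparison of db/db puerarin with db/db vehicle asks what the compound changed in diabetic glomeruli. Members tended to sit slightly lower with puerarin: 27 of 34 had a log2 fold change below 0, against 55.3% of all genes, and 7 above, against 44.7%, with a median of -0.15 (all genes -0.02). Of the mitochondrial members 20 of 21 were below 0 (median -0.17), and of the peroxisomal members 6 of 9 (median -0.14). Cyp4a14, Cyp4a10 and Acot1 lay above 0 and Ppara below it. By edgeR's adjusted p, 0 of 34 members and 0 of 13734 genes passed (0%). At an unadjusted p under 0.05 the count of members was 0 in either direction, against 2.02% of all genes higher and 2.19% lower, and no member was free of overlap (all genes 1.51% higher and 1.72% lower). DESeq2 also called 0 members, as did limma on the deposited log2 values.

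The size of that tilt changed with the libraries kept, and no fit that left out 1 library turned it. Fewer members were above 0 without db/db puerarin 2 (3 of 34), db/db vehicle 1 (3 of 34) or db/m vehicle S184 (4 of 34), and more without db/db puerarin S144 (13 of 34) or db/db vehicle 3 (14 of 34), against 7 of 34 in the whole set. Without db/db puerarin 2 and 3, the libraries with high Xist, 1 of 34 was above 0 and the median was -0.33, but S144 was then the only puerarin library and was assumed to vary like the others. In that fit Cyp4a14 was at -0.14 and Cyp4a10 at -0.57.

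Against db/m vehicle, db/db puerarin showed no common direction: 18 of 34 members were above 0 (all genes 47.7%) and 16 below (all genes 52.3%), with a median of 0.02. Mitochondrial members had a median of -0.02, peroxisomal members of 0.07 and the 4 others of 1.2. By edgeR's adjusted p, 0 of 34 members passed, compared with 25 of 13734 genes (0.182%). At an unadjusted p under 0.05, 2 of 34 members, Cyp4a14 and Cyp4a10, were higher in db/db puerarin (all genes 5.37%), and this pair was also higher without overlap (all genes 3.73%). No member was lower by either measure (all genes 4.89% and 3.92%). DESeq2 called Cyp4a14 and no other member. Without db/db puerarin 2 and 3, Cyp4a14 was at 2.59 (edgeR adjusted p = 0.681) and 7 of 34 members were above 0, with a median of -0.19. The number above 0 was 31 without db/db puerarin S144, 30 without db/m vehicle S184 and 9 without db/m vehicle S185. This comparison shares the db/m libraries with the comparison of db/db vehicle with db/m vehicle, and the db/db puerarin libraries with the comparison of treatments.

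Averaged per library as log2 CPM minus the mean of the 11 libraries, the mitochondrial members were at 0.22, 0.07 and -0.38 in db/db puerarin 2, 3 and S144, at -0.14, 0.42, -0.02 and 0.08 in db/db vehicle 1, 3, S152 and S153, and at -0.04, 0.09, 0.16 and -0.46 in db/m vehicle 2, 3, S184 and S185. On this scale the peroxisomal members were at 0.1, 0.01 and -0.19 in db/db puerarin, at -0.35, 0.44, 0.07 and 0.22 in db/db vehicle and at -0.23, -0.05, 0.3 and -0.31 in db/m vehicle. Neither level separated the groups, and db/db vehicle 3 was the highest library in both. The mitochondrial level minus the peroxisomal level was 0.12, 0.06 and -0.19 in db/db puerarin, 0.22, -0.02, -0.09 and -0.14 in db/db vehicle and 0.19, 0.14, -0.14 and -0.16 in db/m vehicle. It was below -0.02 in all 5 S-number libraries and at or above it in all 6 group-tag libraries, and so followed name form and not group.

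**Figure D3:**
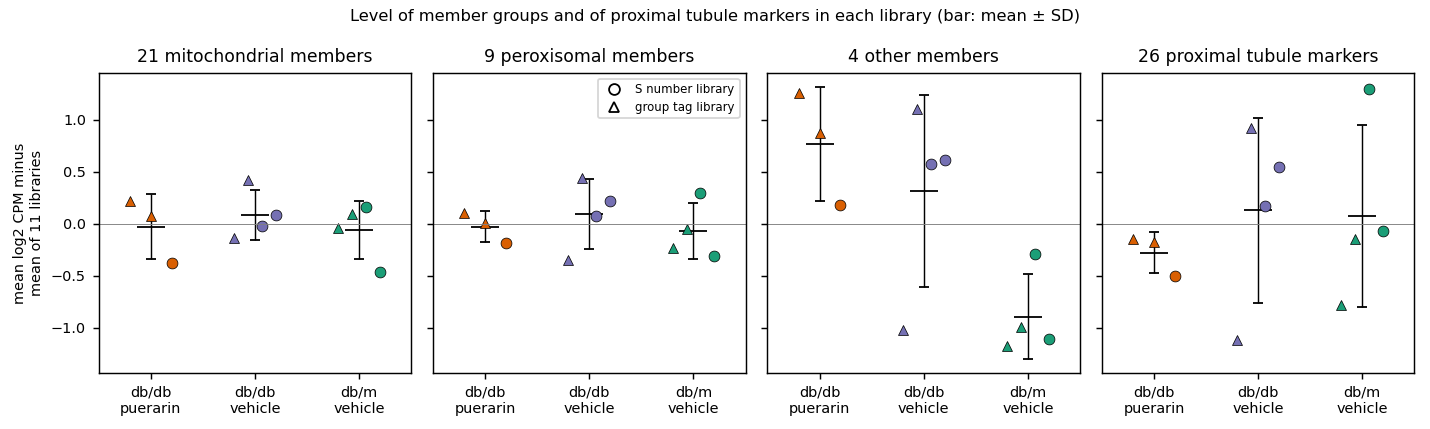
Mean log2 CPM minus the mean of the 11 libraries (y axis) for the mitochondrial, peroxisomal and other members and for the proximal tubule markers, in each library of the 3 groups (x axis), with circles for S-number and triangles for group-tag libraries and bars for the mean ± SD. The mitochondrial and peroxisomal levels overlap between groups, and the proximal tubule level runs from -1.12 in db/db vehicle 1 to 1.3 in db/m vehicle S184.

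The proximal tubule level, from 26 of 26 listed markers on the same scale, was -0.15, -0.18 and -0.5 in db/db puerarin 2, 3 and S144, -1.12, 0.92, 0.17 and 0.55 in db/db vehicle 1, 3, S152 and S153, and -0.78, -0.15, 1.3 and -0.07 in db/m vehicle 2, 3, S184 and S185. The median log2 fold change of these markers was 0.26 in db/db vehicle against db/m vehicle, -0.34 in db/db puerarin against db/db vehicle and 0.06 in db/db puerarin against db/m vehicle, which matched the members' medians in sign. No proximal tubule marker was at 0 in any library. Marker lists of other cell types also had medians away from 0. In db/db vehicle against db/m vehicle the median was 0.38 for loop and distal tubule markers (9 of 11 above 0), 0.47 for collecting duct markers (10 of 11) and -0.26 for podocyte markers (1 of 10). Puerarin against vehicle in db/db mice gave medians of -0.61 for loop and distal tubule markers, -0.37 for collecting duct markers and -1.25 for myeloid markers. Of these lists 0 of 11, 0 of 11 and 0 of 10 markers were above 0. Only S144 of the puerarin libraries was low in both tubule lists. In db/db puerarin 2 and 3 the loop and distal tubule level was 0.6 and 0.52, and the collecting duct level 0.66 and 0.96. In db/db vehicle these levels ran from -0.18 to 1.14 and from -0.21 to 1.02. The myeloid level was 2.78 in db/db vehicle 1, -0.27 to 0.85 in the other db/db vehicle libraries and -0.43 to 0.62 in db/db puerarin. S144 and S185, the lowest libraries of their groups for many members, were also lowest for loop and distal tubule markers (-1.61 and -1.33) and for collecting duct markers (-1.85 and -1.39). In bulk RNA a change in the share of a cell type and a change in RNA per cell cannot be told apart.

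With the proximal tubule level added to the fit as a covariate, 33 of 34 members stayed above 0 in db/db vehicle against db/m vehicle, with a median of 0.15. Ppara, Cyp4a10 and Cyp4a14 then passed the test, at log2 fold changes of 0.95 (edgeR adjusted p = 0.00908), 1.08 (edgeR adjusted p = 0.0183) and 2.43 (edgeR adjusted p = 0.0322). They also passed in db/db puerarin against db/m vehicle, at 0.93 (edgeR adjusted p = 0.00588), 2.08 (edgeR adjusted p = 0.00129) and 3.88 (edgeR adjusted p = 0.00349). The proximal tubule list itself held group differences. Slc22a7, 1 of its 26 markers, was called lower in both comparisons, at -2.53 and -3.19 (edgeR adjusted p = 0.0493 and 0.042). Of the 26, 20 and 14 were above 0 in those comparisons. Kap was at 56.7 and 22.7 CPM in db/db puerarin 2 and 3 and at 114.7 to 3031.3 CPM elsewhere. The weight of such markers in the covariate was not tested. The members' median in db/db puerarin against db/db vehicle was -0.04 with this covariate and 11 of 34 were above 0. With the mean of the proximal, loop and distal, and collecting duct lists as the covariate, that direction turned: 27 of 34 members were above 0 and the median was 0.07. The same covariate in db/db vehicle against db/m vehicle left 23 of 34 above 0, with a median of 0.05, and 0 members passed (Cyp4a14 at 2.03, edgeR adjusted p = 0.087). These covariates raised the number of calls over all 13734 genes as well. In db/db vehicle against db/m vehicle it was 259 with the proximal tubule and 93 with the combined covariate, compared with 6 without either, and in db/db puerarin against db/m vehicle it was 354 and 344, compared with 25. Myeloid markers had a median log2 fold change of 1.42 in db/db vehicle against db/m vehicle, with 0 of 10 called. Their level was 2.78, 0.85, -0.1 and -0.27 in db/db vehicle 1, 3, S152 and S153, and -1.36 to -0.4 in db/m vehicle. The highest level by far was thus in 1 library. The part of the tubule and myeloid cell types in the results was not tested beyond these covariates.

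**Figure D4:**
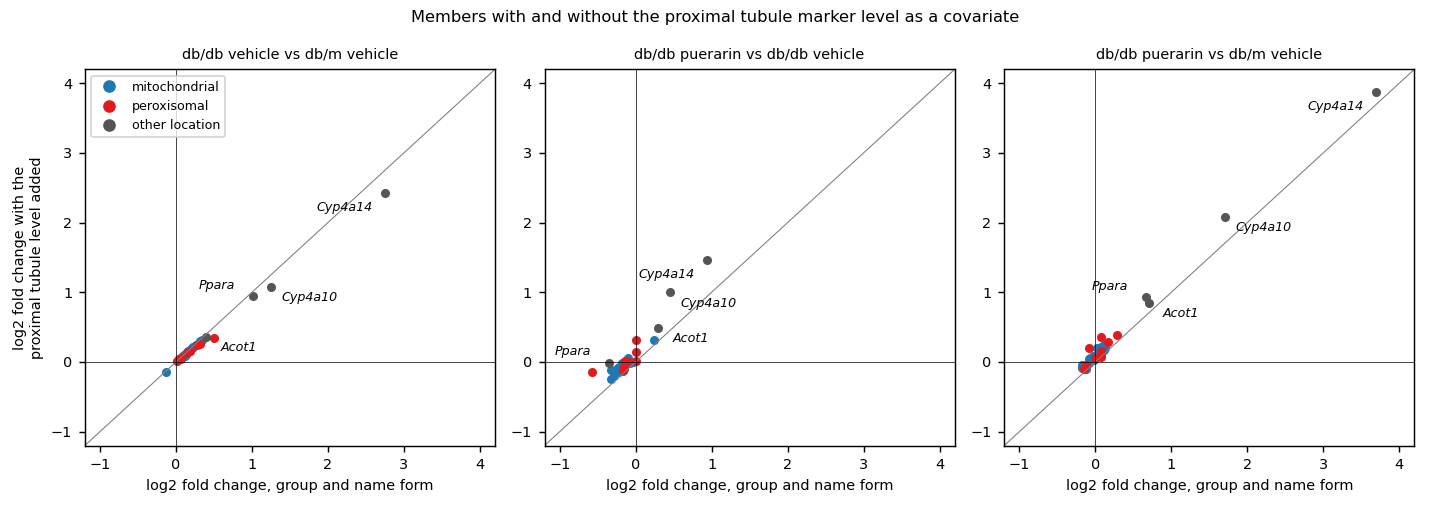
Log2 fold change of each member with the proximal tubule level added to the fit (y axis) against that with group and name form alone (x axis) in the 3 comparisons, coloured by main location, with the line of equal values. Cyp4a14, Cyp4a10 and Ppara stay well above 0 in both comparisons with db/m vehicle, and in db/db puerarin against db/db vehicle most members move up toward 0.

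Fitted by name form, the members' median in db/db vehicle against db/m vehicle was 0.16 in the S-number libraries and 0.17 in the group-tag libraries. In db/db puerarin against db/db vehicle it was -0.32 in the S-number libraries, with S144 as the only puerarin library, and -0.06 in the group-tag libraries. In db/db puerarin against db/m vehicle the sign differed, at -0.2 in the S-number and 0.15 in the group-tag libraries. Cyp4a14 differed in sign in db/db puerarin against db/db vehicle, with -0.2 in the S-number and 1.55 in the group-tag libraries. Against db/m vehicle, the mean log2 CPM of Cyp4a14 in db/db puerarin was higher in both name forms, by 2.66 and 4.03. The group-tag puerarin libraries are also those with high Xist, so name form and that mark cannot be told apart within the puerarin group. The difference between name forms was not tested.

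Of 105 listed genes that neighbour the members in the pathway, 97 were measured. In db/db vehicle against db/m vehicle 66 of 97 were above 0 (median 0.07), against 53.5% of all genes, and 0 passed edgeR's adjusted p. Between db/db puerarin and db/db vehicle 72 of 97 were below 0 (median -0.12), against 55.3% of all genes, and 0 passed. Among 14 measured Ppar target genes outside the members (of 22 listed), 13 were above 0 in db/db vehicle against db/m vehicle, with a median of 0.53. They included Angptl4, a secreted lipase inhibitor, at 0.85 ± 0.25 (SE, edgeR adjusted p = 0.265), the lipid droplet coat protein Plin2 at 0.52 ± 0.15 (edgeR adjusted p = 0.239) and the mitochondrial carrier Ucp2 at 0.62 ± 0.19 (edgeR adjusted p = 0.281). Cyp4a12a, a further hydroxylase of the Cyp4a family, went the other way at -0.61 ± 0.44 (edgeR adjusted p = 0.681). Of the 28 measured peroxisomal genes 16 were above 0 (median 0.03), and of the 28 mitochondrial and activation genes 22 were (median 0.08). The difference of these lists from the members was not tested.

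The fatty acid carrier Fabp4 was the only listed pathway gene to pass the test in any comparison, and it rose in db/db puerarin against db/m vehicle. It was at 112.6, 78.3 and 122.8 CPM in db/db puerarin 2, 3 and S144, at 80.8, 53.7, 67.1 and 64.7 CPM in db/db vehicle 1, 3, S152 and S153, and at 49.2, 51.8, 33.5 and 40.2 CPM in db/m vehicle 2, 3, S184 and S185. The fitted difference was 1.26 ± 0.2 on the log2 scale (SE, edgeR adjusted p = 0.0455) in db/db puerarin against db/m vehicle, 0.61 ± 0.19 (edgeR adjusted p = 0.278) in db/db vehicle against db/m vehicle and 0.64 ± 0.2 (edgeR adjusted p = 0.967) in db/db puerarin against db/db vehicle. That call was close to the threshold: the adjusted p ran from 5.79e-06 to 0.718 over the alternatives and was below 0.05 in only 2 of the 11 fits that left out a library, those without db/db vehicle 1 or 3. Without db/db puerarin 2 and 3 the log2 difference was 1.64 (edgeR adjusted p = 0.225). Mgll, which cleaves monoglycerides to free fatty acids, was at 474 ± 32.5 CPM in db/db puerarin (SD, n = 3), 389 ± 23.1 CPM in db/db vehicle (n = 4) and 327 ± 29.7 CPM in db/m vehicle (n = 4). It differed by 0.54 ± 0.09 on the log2 scale (SE, edgeR adjusted p = 0.0608) in db/db puerarin against db/m vehicle. Of the 11 fits that left out a library, Mgll passed in only 1, that without db/db vehicle 1 (edgeR adjusted p = 0.0491). Markers of fat cells are not analysed here, since 0 of 7 listed were measured.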

How the data were processed

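RNA of isolated glomeruli with an integrity value above 7.5 was sequenced, per the labels' protocols. BWA, limma and the build mm10 are named in the submitters' processing notes, without versions. The sources used here do not give the rule for assigning reads, or the use of strand. Deposited values include whole read counts for 22320 RefSeq transcripts. The deposited log2 values are those counts on the log2 scale, shifted by 1 constant for each library, and were used only in a limma alternative. Of the deposited columns, 4 count columns and 4 log2 columns could be tied to no sample here and were left aside. The 13 blank cells were set to 0, and for 50 transcripts a symbol that a spreadsheet had made into a date was put back from the identifier.

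Counts were summed per symbol. For Acsl1, Eci2, Etfb, Hadhb and Ppara, the 5 members with more than 1 transcript, reads shared by transcripts enter the sum repeatedly. The main test was edgeR 4.0.16 (R 4.3.3, glmQLFit and glmQLFTest, TMM) on all 11 libraries, with terms for group and for name form, giving 7 residual degrees of freedom. The filter (a count of 1 or more in 3 libraries) removed no member and left 13734 genes. P-values were two-sided, adjusted by Benjamini-Hochberg over all genes, and called under 0.05. The script was tested on simulated counts. Levels per library used log2 CPM with a prior count of 1. No 2 libraries of a group agreed within sampling noise.

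The members and gene lists were chosen with earlier results of these data known, so lists are described by counts and medians only. Values in every library are given for 20 members chosen by role and for the 3 with the smallest p in each direction of each comparison, 23 in all. Genes outside the members were named after their values were seen, and 1 listed pathway gene is not reported here by itself. Alternatives were DESeq2 1.42.0, limma 3.58.1, other size factors, filters, covariates and sample sets, and leaving out each library.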

Additional observations from a re-analysis of the deposited data

Results flagged for a closer look

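Of 68 sets of 4 libraries (each member in either vehicle group), 2 held a library far from the other 3 by Dixon's test at 95%, and since chance gives about 1 in 20, this count is no more than chance would give. Acsl1 was at 151.6 CPM in db/db vehicle 3, against 86.9 to 95 CPM in the other db/db vehicle libraries. Ppara was at 47.1 CPM in db/m vehicle S184, against 18.9 to 22.4 CPM in the other db/m vehicle libraries. The proximal tubule marker levels of these libraries were 0.92 and 1.3 on the log2 scale, and their part in the 2 values was not tested.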

How the results depend on the processing

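Each result was recomputed under 25 other settings, 11 of which left out a library. Of 2550 member values, 2297 had the sign of the main fit and 17 passed the test. Signs were compared on rounded values, where 0.0 counted as not above 0. In db/db puerarin against db/db vehicle this held for Eci2 and Ech1, which are among the 7 of 34 above 0 before rounding. The number of members called, 0 above, became 1 (Cyp4a14) in db/db vehicle against db/m vehicle with the S-number libraries alone, the replicate block or DESeq2, and 3 with the proximal tubule covariate. In db/db puerarin against db/m vehicle it became 1 (Cyp4a14) with only the groups compared, the replicate block or DESeq2, and 3 with either tubule covariate. Leaving out a library gave 0 to 1 in both.

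Numbers of all genes called depended on the fit. For db/db vehicle against db/m vehicle (6), they were 1 without the name form term, 93 with the tubule and 259 with the proximal tubule covariate, 2 with only the groups compared, 0 in group-tag libraries, 2 without db/db puerarin 2 and 3, 56 with the replicate block, 13 with limma, 290 with DESeq2 and 0 to 82 without a library (82 without db/db vehicle 1). For db/db puerarin against db/db vehicle (0), they were 1 in group-tag libraries, 15 with DESeq2 and 0 to 5 without a library. For db/db puerarin against db/m vehicle (25), they were 5 without the name form term, 344 and 354 with the tubule and proximal tubule covariates, 5 with only the groups compared, 2 and 1 in S-number and group-tag libraries, 0 without db/db puerarin 2 and 3, 49 with the replicate block, 297 with DESeq2 and 0 to 74 without a library (74 without db/db vehicle 1). The cause of these differences was not tested.

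Same-numbered libraries did not deviate together (correlations of -0.11 to 0.06), so the replicate block rests on shared numbers only, and it sets db/db vehicle 1 apart as a block of its own. Other size factors changed no member's call. The stricter filter (edgeR's filterByExpr) removed none of the 13734 genes, so that setting only repeated the main fit. Groups of 3 and 4 libraries and reads shared between near copies limit the precision.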
